A study of Mus musculus with 6 samples.

Results

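The heat shock proteins and molecular chaperones of mouse pluripotent cells were compared between 3 induced pluripotent stem (iPS) cell lines and embryonic stem (ES) cells. Members were taken by gene symbol, current or synonym: every probe whose symbol starts with Hspa, Hspb, Hspd, Hspe, Hsph, Hsp90, Dnaja, Dnajb, Dnajc or Pdia, and Tcp1 with Cct2 to Cct8. The rule found 186 of 41174 gene probes, standing for 93 of 18295 named genes, and it used no measured value. No probe carried the symbol Hspa8, so the constitutive cytosolic Hsp70 is not reported here. Of the 41174 gene probes, 34186 had a symbol, and whether one of the others reads Hspa8 is not known. P4hb (synonym Pdia1) and Cryab (HspB5) entered by a synonym, as did St13, Tmem132a and Vipas39, and the last of these matched by its letters alone. Each gene is represented by its brightest probe unless several probes are named.

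The lines iPS1, iPS4 and iPS5 were GFP-positive colonies that were picked and expanded from OG2 mouse embryonic fibroblasts, so each line descends from 1 colony. The fibroblasts had received pMX retroviruses that carried 16 genes in all: c-Myc, Klf4, Sox2 and Oct4 (the usual reprogramming set), TBP, and the TBP-associated factors TAF13, TAF12, TAF11, TAF10, TAF9, TAF7, TAF6, TAF5, TAF4b, TAF4 and TAF3, subunits of the general transcription factor TFIID. The control was RNA pooled from OG2 ES cells, for which the labels name no transduction. Both kinds of cell grew on irradiated fibroblast feeders with LIF, so feeder RNA could be present in either. The labels name no heat or drug treatment of any group. Every array carried RNA of 1 line in one dye and the ES pool in the other, and each line had 2 arrays of opposite dye (6 arrays, 3 lines, 1 pool). Values are log2 ratios of iPS over ES as the authors deposited them, so 1 means a doubled level in the iPS line and 0 an equal one.

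Chaperones bind unfolded chains and hold, fold or hand on their clients. Hsp70 proteins do this with ATP, directed by J-domain partners (the DNAJ proteins) and reset by nucleotide exchange factors such as the Hsp110 proteins. Hsp90 matures kinases and receptors, the ring-shaped chaperonins enclose whole chains, the small heat shock proteins hold clients without ATP, and protein disulfide isomerases form disulfide bonds in the endoplasmic reticulum (ER). Heat shock factors induce many cytosolic and mitochondrial members through heat shock elements, and the unfolded protein response induces ER members through ER stress elements.

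Promoter sequences are printed here for some of the members that hold these elements. Of these members, Hspe1, Hspa5 and Hsp90b1 did not pass the test against the ES pool described below. The sequences are RefSeq promoters on GRCm38.p6, printed 5′ to 3′ on the gene's strand. Each ends at the base before the transcription start, with the matched element in capitals. Hspe1, which encodes the mitochondrial co-chaperonin Hsp10, lies at chr1:55087998-55088147 on the plus strand, and Dnajb6, a J-domain partner of Hsp70, at chr5:29735748-29735897 on the plus strand. Both hold a heat shock element of at least 3 units, while the promoter of Hsph1, an Hsp110 exchange factor at chr5:149636337-149636436 on the minus strand, holds 1 of 2 units.
Hspe1: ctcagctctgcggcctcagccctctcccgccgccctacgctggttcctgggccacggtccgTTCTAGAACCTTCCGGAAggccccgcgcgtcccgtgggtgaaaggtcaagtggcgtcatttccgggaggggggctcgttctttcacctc
Dnajb6: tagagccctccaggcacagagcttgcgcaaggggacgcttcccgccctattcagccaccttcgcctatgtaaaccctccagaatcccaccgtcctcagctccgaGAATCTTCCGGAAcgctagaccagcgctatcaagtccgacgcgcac
Hsph1: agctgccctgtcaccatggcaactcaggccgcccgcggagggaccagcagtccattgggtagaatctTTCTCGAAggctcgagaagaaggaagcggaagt

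The ER members shown next are Hspa5 (BiP, the ER Hsp70), at chr2:34771940-34772089 on the plus strand, Hsp90b1 (the ER Hsp90), at chr10:86705445-86705694 on the minus strand, and the disulfide isomerase Pdia6, at chr12:17266439-17266588 on the plus strand. Capitals mark the ER stress element, of which Hsp90b1 holds 2, on opposite strands.
Hspa5: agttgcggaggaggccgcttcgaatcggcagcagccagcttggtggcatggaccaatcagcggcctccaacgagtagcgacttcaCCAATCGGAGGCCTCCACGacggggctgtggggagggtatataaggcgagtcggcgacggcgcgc
Hsp90b1: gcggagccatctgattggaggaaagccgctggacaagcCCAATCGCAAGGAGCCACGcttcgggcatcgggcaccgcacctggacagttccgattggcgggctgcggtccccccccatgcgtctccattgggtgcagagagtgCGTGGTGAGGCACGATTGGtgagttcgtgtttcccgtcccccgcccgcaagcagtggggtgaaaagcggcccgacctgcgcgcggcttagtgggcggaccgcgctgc
Pdia6: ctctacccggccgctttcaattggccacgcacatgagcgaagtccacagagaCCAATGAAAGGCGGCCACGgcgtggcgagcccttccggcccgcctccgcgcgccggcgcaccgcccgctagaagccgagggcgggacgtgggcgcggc

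Of the 93 members, 75 had an entry in the promoter table, and the 250 bases before each start were searched on both strands. A heat shock element of 3 units (GAA and TTC in turn, with 2 free bases between neighbours) lay before Dnajb6, Hspd1 and Hspe1, against 0.514% of all 27025 genes with a promoter. The 2-unit form (GAANNTTC or TTCNNGAA), which every 3-unit match contains, lay before 16 of 75 members (21.3%), against 14.5% of all genes. An ER stress element (CCAAT and CCACG with 9 free bases between them) lay before Dnajc3, Hsp90b1, Hspa5 and Pdia6, all 4 assigned to the ER, against 0.130% of all genes. Its first letters are an inverted CCAAT box (ATTGG on the other strand), a motif found before 32 of 75 members (42.7%) and 37.5% of all genes, and the C/EBP-ATF element (TGATGNAA) lay before 1 member, Hspa14, and 3.91% of all genes. One of the 2 Hspd1 entries starts 215 bases from the Hspe1 start on the opposite strand, so that the element printed for Hspe1 is the one found for Hspd1. These matches are descriptions of letters, and binding was not measured.

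Against the ES pool, 17 of the 93 members passed the test (18.3%), 10 higher and 7 lower in the iPS lines. Among all genes 12.5% passed. The members higher were 10.8% against 6.03% of all genes, and the members lower were 7.53% against 6.49%, so the lower share is near the background. The median over the members was -0.0004, beside -0.0064 over all genes. Most members lay close to the pool: 71 of 93 within 0.3 of 0, and 6 beyond 0.5. The test was limma's moderated test of the 3 line means against 0, called at a Benjamini-Hochberg adjusted p under 0.05 over all 41174 probes, and all 17 calls had the same sign on the 6 arrays. From the scanner intensities 15 members were called, against 10.2% of all genes, and 13 of these were among the 17. The 4 not called there were Hspd1 (adjusted p = 0.0577), Dnajc6 (0.0563), Dnajb4 (0.0580) and Hspa1l (0.0614), with Cct2 and Dnajb11 called in addition. Counted by probe, 9.72% of all probes were called. The pool is 1 sample and its own spread is left out: when the pool was given the spread of a line, 0 of the 93 were called (17 at an unadjusted p under 0.05). Without line iPS4 the count was 0 (23 unadjusted), without line iPS1 it was 2, and without line iPS5 it was 16. Over all 41174 probes, 4003 were called in the main fit and 0 with the pool given that spread. Without line iPS4 0 of all probes were called, without line iPS1 751, and without line iPS5 5246. A p under 0.05 in the authors' deposited table was held by 14 members, against 10.8% of all genes. From RNA of whole cultures, fewer cells of a type and less RNA per cell cannot be told apart.

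**Figure D1:**
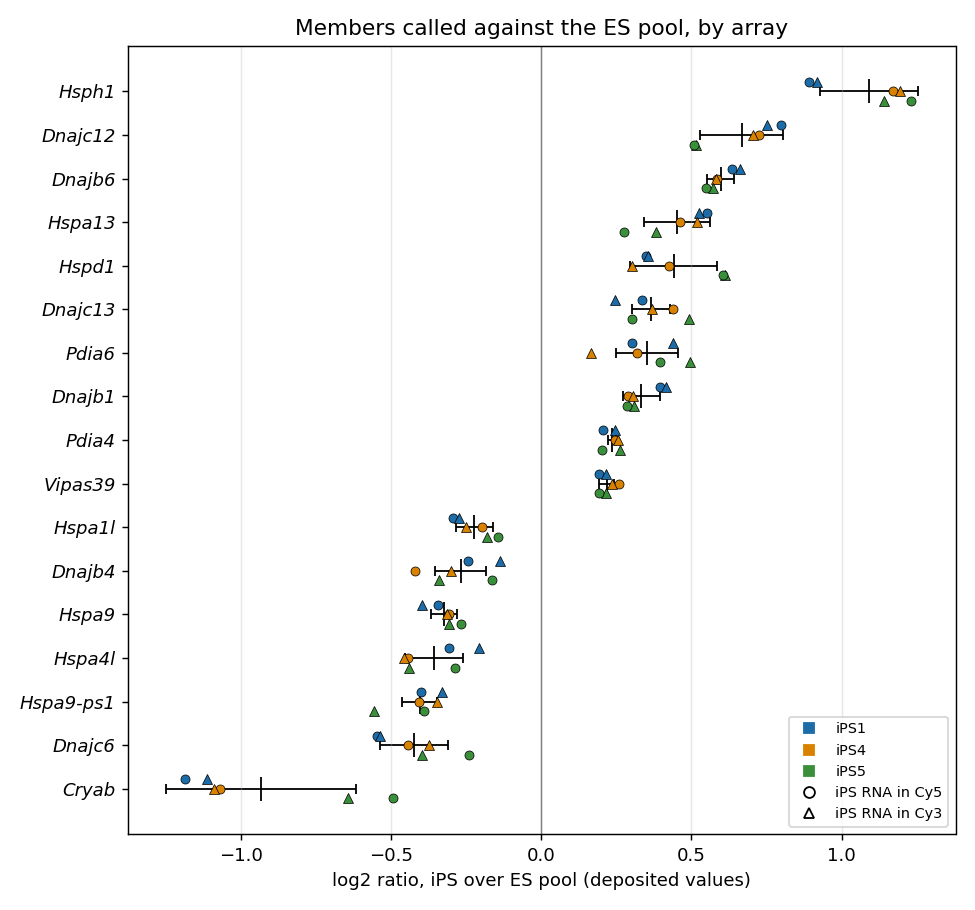
Log2 ratio of iPS over ES pool (x axis, deposited values) on each of the 6 arrays for the 17 members called against the pool, with colour for the line and shape for the dye of the iPS RNA. Black ticks and bars are the mean and SD of the 3 line means; Hsph1 lies highest at 1.09 and Cryab lowest at -0.93, and no gene has arrays on both sides of 0.

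The Hsp110 exchange factors moved in both directions. Hsph1 (Hsp105) had the highest mean of all members, 1.09 ± 0.16 (SD, n = 3 lines), a 2.13-fold level (adjusted p = 0.0173). Its ratio was 0.89 and 0.92 on the arrays of iPS1, 1.17 and 1.20 on those of iPS4, and 1.14 and 1.23 on those of iPS5. All 6 arrays were thus well above 0, with iPS1 below the other lines. Hspa4l, a related exchange factor abundant in testis, was lower at -0.36 ± 0.10 (adjusted p = 0.0345), with -0.31 and -0.21 in iPS1, -0.44 and -0.46 in iPS4, and -0.44 and -0.29 in iPS5. Its 5 probes ranged from -0.61 to 0.02, and 2 of them were called lower. The third member of the family, Hspa4 (Apg-2), had 0.26 ± 0.11 at its brightest probe (adjusted p = 0.0640), 0.19 to 0.30 at 3 other probes, and 1.20 ± 0.18 at the fifth, which was called higher. The probes of Hspa4 therefore do not give 1 size of change.

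Among the 10 genes of the Hsp70 family proper, 1 was called higher (10.0%, against 6.03% of all genes) and 2 lower (20.0%, against 6.49%). The stress-inducible cytosolic Hsp70, Hspa1a, did not pass the test against the pool, with -0.54 ± 0.43 (adjusted p = 0.141). Its arrays read -0.18 and -0.20 in iPS1, -1.05 and -0.97 in iPS4, and -0.47 and -0.35 in iPS5, all below 0 and lowest in iPS4. A second probe of Hspa1a had nearly the same mean, -0.50. Hspa1b, the neighbouring gene that encodes a nearly identical protein, read -0.06 and -0.03 in iPS1, -0.17 and -0.16 in iPS4, and -0.09 and -0.02 in iPS5, again lowest in iPS4 but close to 0. The promoters of the pair are the same at 247 of 250 positions. How far each probe also binds the RNA of the other gene was not tested, so the split between them is uncertain. Hspa1l, the testis Hsp70 of the same cluster, was lower at -0.22 ± 0.06 (adjusted p = 0.0466), from -0.29 to -0.14 over the arrays.

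The mitochondrion and the ER each had an Hsp70 that passed the test, in opposite directions. Hspa9 (mortalin), the mitochondrial Hsp70 that pulls precursors through the inner membrane, was lower at -0.32 ± 0.04 (adjusted p = 0.0258). Its arrays read -0.34 and -0.39 in iPS1, -0.31 and -0.31 in iPS4, and -0.31 and -0.27 in iPS5, and its second probe was called lower with a mean of -0.33. Hspa13 (Stch), an Hsp70-like protein of the ER membrane fraction, was higher at 0.45 ± 0.11 (adjusted p = 0.0289), with 0.55 and 0.53 in iPS1, 0.46 and 0.52 in iPS4, and 0.38 and 0.28 in iPS5, while its 3 dimmer probes were not called and went down to -0.001. Hspa5 missed the threshold at 0.46 ± 0.22 (adjusted p = 0.0630), with 0.30 and 0.21 in iPS1, 0.43 and 0.40 in iPS4, and 0.86 and 0.53 in iPS5. All its arrays were above 0, and those of iPS5 were above the rest. The lines were not called different for Hspa5 (adjusted p = 0.150, F test on scanner intensities described below). Hspa2, Hspa12a, Hspa12b and Hspa14 ranged from -0.13 to 0.03, and no probe of Hspa12a or Hspa12b was above background on all arrays.

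None of the 3 Hsp90 genes was called against the pool. Hsp90ab1, the constitutive cytosolic form, had a mean of -0.03 ± 0.33 that joined opposite lines: -0.33 and -0.28 in iPS1, -0.09 and -0.16 in iPS4, and 0.27 and 0.38 in iPS5. Its dimmer probes gave the same order of lines. Hsp90b1, the ER form, read 0.11 and 0.23 in iPS1, 0.22 and 0.26 in iPS4, and 0.54 and 0.79 in iPS5 (0.36 ± 0.27, adjusted p = 0.133). A further Hsp90b1 probe ran the other way among the lines, with 1.01 and 1.00 in iPS1 and -0.06 and 0.02 in iPS5. Hsp90aa1, the inducible cytosolic form, had 1 probe on which the arrays of a line disagreed: 0.11 and 0.09 in iPS1, 0.34 and -0.25 in iPS4, and 0.32 and -0.44 in iPS5. Its mean was 0.03 from the deposited ratios and -0.15 from the scanner intensities, so no direction is given.

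The chaperonins of the mitochondrion and the cytosol are described together because both are folding rings. Hspd1 (Hsp60) was higher at 0.44 ± 0.15 (adjusted p = 0.0375), with 0.35 and 0.36 in iPS1, 0.42 and 0.30 in iPS4, and 0.61 and 0.61 in iPS5, and its second probe was called higher at 0.33. Its partner Hspe1, which shares the promoter printed above, read 0.12 and 0.14 in iPS1, 0.12 and 0.03 in iPS4, and 0.12 and -0.01 in iPS5, a mean of 0.09 ± 0.04 that did not pass (adjusted p = 0.184). The difference between the partners was not tested. None of the 9 subunit genes of the cytosolic ring (CCT, which folds actin and tubulin) was called, and their means ran from -0.23 for Cct7 to 0.17 for Cct3, with a median of 0.05. Tcp1 itself read -0.07 and -0.03 in iPS1, -0.16 and -0.29 in iPS4, and -0.13 and -0.20 in iPS5. Single dimmer probes of Cct4 (0.82, higher) and Cct2 (-0.42, lower) were called, unlike the brightest probes of those genes (0.07 and -0.20). The brightest Cct2 probe was also below 0 on all 6 arrays. From the scanner intensities it was called lower (-0.25, adjusted p = 0.0453).

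**Figure D2:**
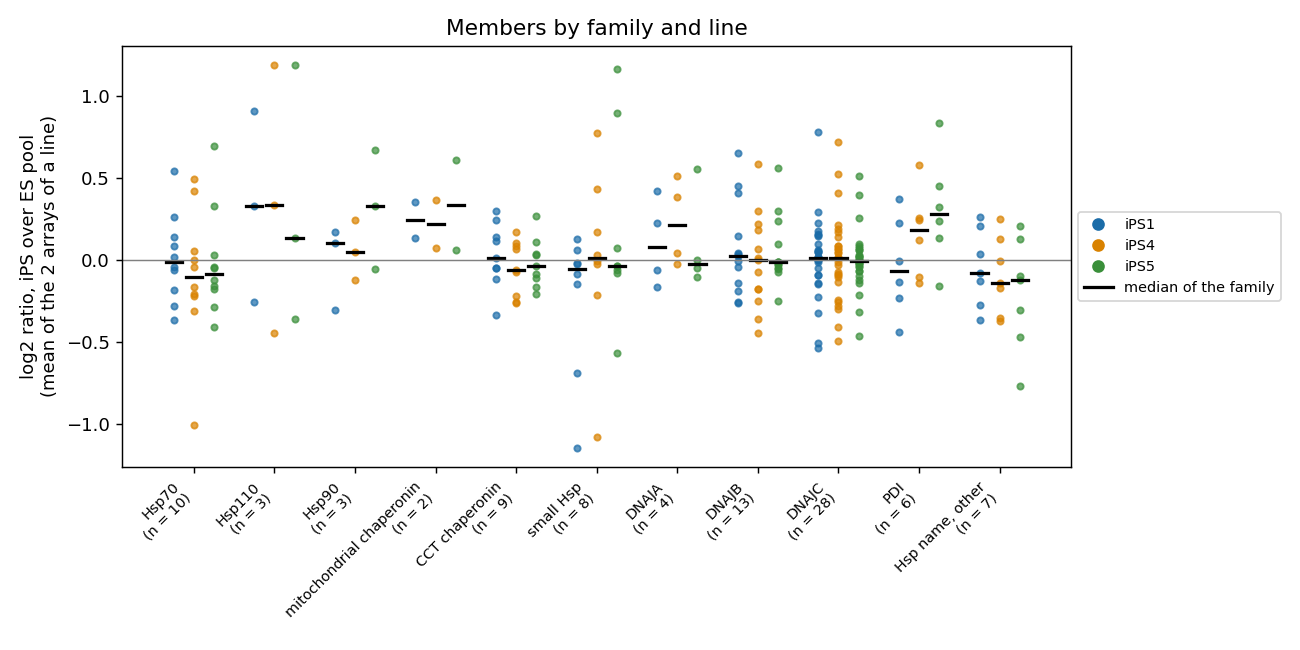
Log2 ratio of iPS over ES pool (y axis, mean of the 2 arrays of a line) for each of the 93 members, by family (x axis) and line (colour), with the family median as a black bar. The CCT subunits stay between -0.34 and 0.30 in every line, while the small heat shock proteins run from -1.15 to 1.16.

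J-domain proteins choose the clients of Hsp70 and start its ATP cycle. Of 45 such genes, 4 were called higher and 2 lower, together 13.3% beside 12.5% of all genes. Dnajc12, a co-chaperone of aromatic amino acid hydroxylases, was the highest at 0.67 ± 0.14 (adjusted p = 0.0232). It read 0.80 and 0.75 in iPS1, 0.73 and 0.71 in iPS4, and 0.52 and 0.51 in iPS5. Dnajb6, which limits aggregation of polyglutamine proteins, was nearly equal in the lines, with 0.64 and 0.66 in iPS1, 0.59 and 0.58 in iPS4, and 0.57 and 0.55 in iPS5 (0.60 ± 0.05, adjusted p = 0.0173). Its dimmer probe had 0.05. Dnajc13 (RME-8), which acts on endosomes, read 0.34 and 0.25 in iPS1, 0.44 and 0.37 in iPS4, and 0.49 and 0.30 in iPS5, and was higher by 0.36 ± 0.06 (adjusted p = 0.0262), though its dimmer probe had 0.07 and was not called.

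Dnajb1, the main heat-inducible J-domain partner of cytosolic Hsp70, was called in both directions by its 2 probes. The brighter read 0.40 and 0.42 in iPS1, 0.29 and 0.31 in iPS4, and 0.31 and 0.29 in iPS5, a mean of 0.33 ± 0.06 (adjusted p = 0.0283). The dimmer had a mean of -0.43 ± 0.10 (adjusted p = 0.0281) and was negative on all 6 arrays, from -0.55 to -0.29. The gene is counted as higher by the rule of the brightest probe, and its direction is uncertain. Dnaja1 (Hdj2), another main cytosolic partner, showed the reverse case: its brightest probe read 0.21 and 0.24 in iPS1, 0.38 and 0.38 in iPS4, and 0.53 and 0.58 in iPS5 and missed the threshold (0.39 ± 0.16, adjusted p = 0.0537), while its 2 other probes were called higher at 0.60 and 0.64.

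The 2 J-domain genes called lower have different roles. Dnajc6 (auxilin), which uncoats clathrin vesicles with Hsp70, read -0.55 and -0.54 in iPS1, -0.44 and -0.37 in iPS4, and -0.40 and -0.24 in iPS5 (-0.42 ± 0.11, adjusted p = 0.0316). Dnajb4, a cytosolic relative of Dnajb1, read -0.24 and -0.14 in iPS1, -0.42 and -0.30 in iPS4, and -0.34 and -0.16 in iPS5 (-0.27 ± 0.09, adjusted p = 0.0452), but its 3 dimmer probes were not called and reached 0.02. The other J-domain genes lay between -0.38 for Dnajc22 and 0.39 for Dnaja1. Of the 3 Dnajc5 probes 2 were called lower (-0.19 and -0.45), though its brightest was not (-0.14).

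The small heat shock proteins had the widest range of any family. Cryab (αB-crystallin), the muscle and lens form that many stressed cells make, was the lowest member, at -0.93 ± 0.32 (adjusted p = 0.0354). It read -1.18 and -1.11 in iPS1, -1.07 and -1.09 in iPS4, and -0.64 and -0.49 in iPS5, so iPS5 was nearest to the pool. Its dimmer probe had -0.15 ± 0.13 and was not called. Of 18 listed fibroblast and feeder markers, 7 were called lower (38.9%, against 6.49% of all genes) and none higher. The median of the 18 was -0.68 in iPS1, -0.58 in iPS4 and -0.22 in iPS5. Means above 0 were found for 2 of the 18, Fbln1 (0.27, adjusted p = 0.0578) and Fn1 (0.04), and neither was called. Dcn (-1.47) and Lum (-1.20) were among those 7, and 14 of the 18 were above background in both channels of all arrays. The part of these cells in the Cryab result was not tested. Of the other small heat shock genes, Hspb1 and Hspb9 are described with the lines. Hspb8 had 0.21 ± 0.19, and Hspb2, Hspb3, Hspb6 and Hspb7 ranged from -0.11 to 0.02, with 3 of these 4 not above background on all arrays.

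In the ER, 3 of 20 members were called, all higher (15.0%, against 6.03% of all genes called higher). They are Hspa13 and a pair of disulfide isomerases. Pdia4 (ERp72) was close to the same in each line, with 0.21 and 0.25 in iPS1, 0.25 and 0.25 in iPS4, and 0.26 and 0.20 in iPS5 (0.24 ± 0.01, adjusted p = 0.0309). Pdia6 (P5) read 0.30 and 0.44 in iPS1, 0.32 and 0.17 in iPS4, and 0.50 and 0.40 in iPS5 (0.35 ± 0.10, adjusted p = 0.0362), and 2 of its 4 probes were called. P4hb, the founding disulfide isomerase, split by line, with -0.16 and -0.11 in iPS1, 0.11 and 0.13 in iPS4, and 0.27 and 0.37 in iPS5. Dnajb9 (ERdj4), a target of the unfolded protein response, read -0.33 and -0.19 in iPS1, -0.47 and -0.43 in iPS4, and -0.15 and -0.01 in iPS5 (-0.26 ± 0.18, adjusted p = 0.126), below 0 on all arrays. The ER median was 0.0007, because 10 members lay on each side of 0.

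Of the 23 other ER folding and unfolded protein response genes measured, 6 were called lower (26.1%, against 6.49% of all genes), 1 was called higher (4.35%, against 6.03%) and 16 did not pass, with a median of -0.04. The lowest was Ddit3 (CHOP), a stress-induced transcription factor, at -1.36 ± 0.37 (adjusted p = 0.0277). Hyou1, the ER exchange factor of the Hsp110 type, was -1.19 ± 0.07 (adjusted p = 0.0173), with -1.11, -1.23 and -1.23 in the lines. Trib3 (-1.09), Herpud1 (-0.97), Atf4 (-0.57) and Erp29 (-0.42) also fell, and the lectin chaperone Canx rose (0.38 ± 0.05, adjusted p = 0.0230).

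**Figure D3:**
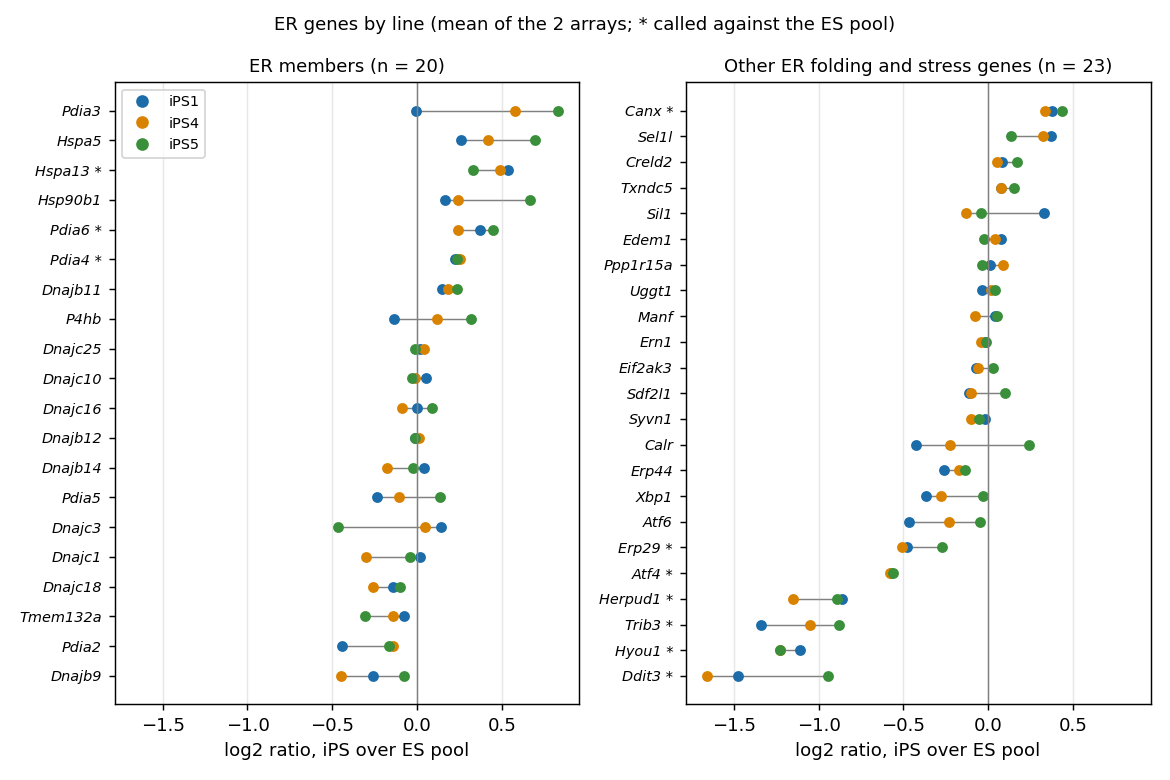
Log2 ratio of iPS over ES pool (x axis, mean of the 2 arrays of a line) for the 20 ER members (left) and the 23 other ER folding and stress genes (right), with a point for each line and a star for genes called against the pool. Starred members lie between 0.24 and 0.45, while Ddit3, Hyou1, Trib3 and Herpud1 lie near or below -0.97 on average.

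By compartment, the cytosol had 46 members, of which 5 were called higher (10.9%, against 6.03% of all genes) and 5 lower (10.9%, against 6.49%), with a median of -0.03. The mitochondrion had 9, with Hspd1 higher and Hspa9 lower, and a median of 0.08. Dnajc11, a J-domain protein of the inner membrane organising complex, had the highest mean of the rest (0.31 ± 0.19, adjusted p = 0.0973). Among 12 mitochondrial partners and proteases that are no members, 4 were called lower (33.3%, against 6.49% of all genes) and none higher. They are Grpel2 (-0.59), an exchange factor of Hspa9, the protease Lonp1 (-0.51 ± 0.07, adjusted p = 0.0188), the mitochondrial Hsp90 Trap1 (-0.37), and Timm44 (-0.35), which holds Hspa9 at the import channel. The other exchange factor, Grpel1, had 0.14. The 3 nuclear members were not called, and of 15 members with no compartment assigned, Vipas39 was higher (0.22 ± 0.02, adjusted p = 0.0355) and Hspa9-ps1 lower (-0.40 ± 0.06, adjusted p = 0.0230). Of the 4 Vipas39 probes 2 were called higher, the lowest had -0.04, and their mean of 0.10 was not called. Vipas39 is an endosomal sorting protein and no chaperone. Hspa9-ps1 is annotated as a pseudogene of Hspa9. How far its probe also binds the RNA of Hspa9 was not tested.

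Heat shock factors and other partners outside the members were also tested. Among 24 genes listed as heat shock factors and co-chaperones, Ppid (0.33) and Fkbp5 (0.24), both immunophilins of Hsp90, were called higher. The ubiquitin ligase Stub1 (CHIP, -0.19) was called lower. Together they are 12.5% of the list, equal to the share of all genes. The list also held Serpinh1, Chmp5 and Tsc22d2, which are no cytosolic co-chaperones and were not called. The factor Hsf1 had a mean of 0.02, and Hsf2 was above background on 3 of the 6 arrays in the iPS channel. Bag3, a stress-induced partner of small heat shock proteins and Hsp70, had -0.35 in iPS1, -0.92 in iPS4 and -0.60 in iPS5. It did not pass (adjusted p = 0.0561). Hspa1a had the same order of lines and did not pass either, and how many of all genes had that order was not counted. Of 12 prefoldin subunits and tubulin cofactors, which hand clients to or take them from CCT, Tbca (-0.33) and Tbcb (-0.24) were called lower and Tbcc (0.31) higher. Together they are 25.0% of that list, against 12.5% of all genes.

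The lines were compared with limma on the scanner intensities, in a fit that held each line and the dye. The F test called 28 of 93 members (30.1%), against 25.2% of all genes, a share near the background. On 34 members (36.6%) the arrays of each line did not overlap those of either other line, against 31.6% of all genes. By pairs, 13 members differed between iPS4 and iPS1 (against 12.0% of all genes), 26 between iPS5 and iPS1 (28.0%, against 23.0% of all genes) and 22 between iPS5 and iPS4 (23.7%, against 13.3% of all genes). The spread in this fit is that of duplicate arrays and may be technical. The count also hangs on the processing, since it was 25 from the deposited ratios (against 21.4% of all genes), 5 with no dye term, 3 with plain background subtraction, 2 with median centring, and 0 with a normexp offset of 0 (21 at an unadjusted p under 0.05). It was 13 without either array of iPS1, 17 without either array of iPS4, and 44 or 40 without 1 of the arrays of iPS5. Over all 41174 probes the F test called 8241. That number was 1494 with no dye term, 586 with plain subtraction, 640 with median centring and 0 with a normexp offset of 0. Without 1 array it was 3374 or 3475 for iPS1, 5237 or 4947 for iPS4, and 12344 or 12031 for iPS5.

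Hspb1 (Hsp25), a small heat shock protein that guards actin filaments, had the widest range among the lines. Its deposited ratio was -0.74 and -0.64 in iPS1, 0.16 and 0.18 in iPS4, and 0.73 and 1.06 in iPS5, so the lines stood on both sides of the pool. From scanner intensities, iPS5 exceeded iPS1 by 1.58 (adjusted p = 8.3e-05) and iPS4 by 0.76 (adjusted p = 0.00325). Hspb9, a small heat shock protein known from testis, followed the same order: -0.11 and 0.07 in iPS1, 0.79 and 0.75 in iPS4, and 1.09 and 1.24 in iPS5, with iPS5 above iPS1 by 1.17 (adjusted p = 0.000151). Hspb11 (IFT25), a part of the ciliary transport complex that only carries the family name, ran in reverse, with 0.23 and 0.29 in iPS1, -0.38 and -0.33 in iPS4, and -0.84 and -0.69 in iPS5. There iPS5 lay below iPS1 by 0.96 (difference -0.96, adjusted p = 0.000147), while its dimmer probe had a mean of -0.03 and was not called.

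**Figure D4:**
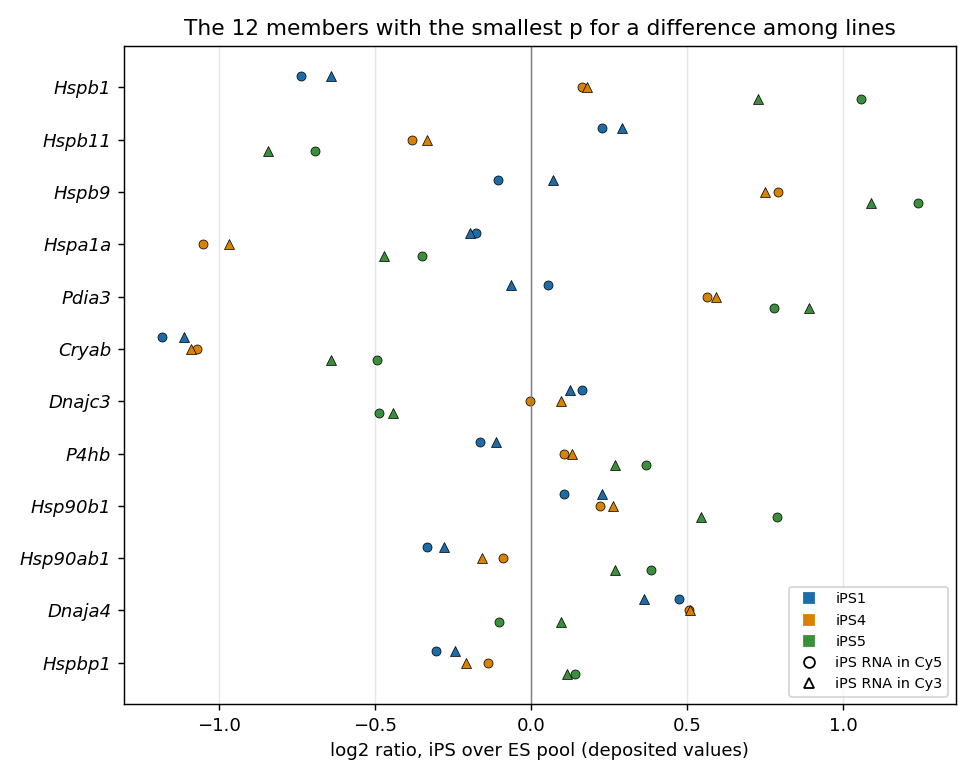
Log2 ratio of iPS over ES pool (x axis, deposited values) on each array for the 12 members with the smallest p in the F test among lines, which was fitted on scanner intensities. Hspb1, Hspb9, Pdia3, P4hb and Hsp90ab1 rise from iPS1 to iPS5, Hspb11 falls, and Hspa1a is lowest in iPS4.

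Pdia3 (ERp57), which works with calnexin on glycoproteins, read 0.05 and -0.07 in iPS1, 0.56 and 0.59 in iPS4, and 0.89 and 0.78 in iPS5. Its scanner difference was 0.84 between iPS5 and iPS1 (adjusted p = 0.000442). Lines differed for 9 of the 20 ER members, against 25.2% of all genes. Line iPS5 had the highest mean for 5 of them, Pdia3, P4hb, Hsp90b1, Pdia5 and Dnajb9, and the lowest for Hspa13 and Dnajc3, while iPS4 was the lowest for Dnajc1 and iPS1 for Pdia2. Dnajc3 (p58IPK), an ER co-chaperone with an ER stress element in its promoter, was lowest in iPS5, with 0.16 and 0.12 in iPS1, -0.003 and 0.10 in iPS4, and -0.44 and -0.49 in iPS5. In Hspa1a iPS4 was the lowest line: it lay below iPS1 by 0.79 (difference -0.79, adjusted p = 0.000827) and below iPS5 by 0.62 (adjusted p = 0.00281). In Cryab, iPS5 exceeded iPS1 by 0.58 (adjusted p = 0.000785), and iPS4 and iPS1 were not called different (0.06, adjusted p = 0.593). The arrays of iPS5 were dimmer, with 47.44% to 65.69% of gene probes above background per channel, beside 65.18% to 87.08% for the other lines, and the part of this in the line differences was not tested.

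Markers of other cell states also differed among the lines. The F test called 14 of 18 fibroblast, 6 of 8 mesoderm, 5 of 8 primitive endoderm, 3 of 7 trophectoderm, 1 of 6 neural and 7 of 12 ES and iPS markers, against 25.2% of all genes. T (Brachyury), the mesoderm factor, had 3.89 in iPS1, 3.22 in iPS4 and 0.73 in iPS5. It was above background on 6 of 6 arrays in the iPS channel and 5 in the ES channel. Eomes, with the same counts above background, had 1.68, 1.03 and 0.39. The mesoderm list was not uniform. Gsc, Mixl1, Kdr and Tbx6 also fell from iPS1 to iPS5, Tbx6 close to 0. Hand1 was below 0 and rose (-0.89, -0.83 and -0.32), and Mesp1 was above 0 only in iPS1 (0.35, -0.10 and -0.07). Chosen after their values were seen, Lama1 (-0.93, 0.14 and 1.11), Pou5f1 (-0.48, 0.28 and 0.72) and Esrrb (-0.77, 0.08 and 0.43) had the order of lines of Hspb1, Hspb9 and Pdia3. That order was held by 4027 of all 18295 genes, 7 of 12 ES and iPS markers and 2 of 8 primitive endoderm markers. Foxa2, a primitive endoderm marker like Lama1, ran in reverse (1.72, 0.81 and 0.05). The part of these cell states in the line differences of the members was not tested.

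The cells' labels were checked against markers. All 12 ES and iPS markers were above background on all arrays in both channels, with Sall4 (0.65) and Nanog (0.65) called higher and Zfp42 (-2.81), Fgf4 (-0.83) and Tdgf1 (-0.38) lower. Of 7 trophectoderm markers 3 keratins were called lower (Krt18, -1.75; Krt8, -1.23; Krt7, -1.06), and of 6 neural markers Map2 was called higher (0.29). None of 8 mesoderm markers was called against the pool, and none was above background in both channels of all arrays. None of 8 primitive endoderm markers was called against the pool, and 4 of them were above background throughout. Of the members, 84 of 93 (90.3%) were above background in both channels of all arrays, against 60.8% of all genes. The number of arrays limits the precision of every value.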

How the data were processed

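RNA of 3 iPS lines and 1 ES pool was measured on 6 two-colour arrays of 45220 spots. The authors deposited 1 log2 ratio per probe and array, whose normalization is not given in the sources used here; its direction, iPS over ES, was read from the sign of its correlation with the raw channel ratios. Scanner intensities were deposited per spot and channel without normalization, per the file headers. The deposited table of the authors also gave a mean ratio and a p-value per probe, from a test that is not stated.

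The deposited ratios of a line's 2 arrays, of opposite dye, were averaged, and the 3 line means were tested against 0 (limma 3.58.1, R 4.3.3, two-sided). The choice of these ratios follows the rule for the members, which names them. Lines were compared on scanner intensities (normexp offset 50, loess within arrays, control spots without weight). Benjamini-Hochberg adjustment ran over 41174 probes. Labels do not say whether duplicate arrays had separate RNA, so p-values among lines may measure technical spread. A channel counted as above background beyond percentile 95 of a dim control reporter (604 spots).

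Of 34186 probes with a symbol, 30365 had a current one in the GRCm38.p6 gene table, 3726 were updated by synonym and 95 were not in it. Members and lists were chosen with earlier results of these data known, and letter case in symbols and the classes of Hspa9-ps1, St13, Tmem132a and Vipas39 were settled after the matches were seen. Values per array are given for called members, for the 6 smallest p in the F test and for 18 chosen members, and other genes by extremes. Promoters come from RefSeq; protein features were not used here. Fits were also run on simulated data that had no spread between lines, so that run does not check the calls against the pool. Alternatives varied the source, background correction, centring, scaling, probe filter, probe summary, replication, dye term, lines and arrays.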

Additional observations from a re-analysis of the deposited data

Results flagged for a closer look

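The lines differed by the F test (limma on scanner intensities, adjusted p under 0.05) in 28 members. That is 30.1% of the members against 25.2% of all genes, a share near the background. In the same test on the deposited ratios, Hspa13 (adjusted p = 0.124), Cct6b (0.105) and Dnajc4 (0.0607) were not called. Each of the 28 is listed with the distance between its highest and lowest line on the log2 scale. The widest distances were those of the small heat shock genes Hspb1 and Hspb9. In that family the distance was 1.58 for Hspb1, 1.17 for Hspb9, 0.58 for Cryab and 0.33 for Hspb8, beside 0.96 for Hspb11, which shares only the name. In the Hsp70, Hsp110 and Hsp90 families the distance was 0.79 for Hspa1a, 0.32 for Hspa14, 0.28 for Hspa13, 0.27 for Hsph1, 0.64 for Hsp90ab1 and 0.51 for Hsp90b1. The disulfide isomerases gave 0.84 for Pdia3, 0.48 for P4hb, 0.32 for Pdia5 and 0.30 for Pdia2. Among J-domain genes it was 0.60 for Dnajc3, 0.51 for Dnaja4, 0.36 for Dnajc11, 0.35 for Dnajc7, 0.35 for Dnajc22, 0.34 for Dnaja1, 0.34 for Dnajb9, 0.30 for Dnajb3, 0.30 for Dnajc1, 0.29 for Dnajc12 and 0.25 for Dnajc4. The last members were Hspbp1 with 0.41 and Cct6b with 0.28.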

How the results depend on the processing

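Each ratio already pairs a line with the ES pool on the same array. Arrays of different lines were not paired further, because the labels give no replicate numbers. Against the ES pool the 17 calls became 51 with 6 arrays as replicates, 41 with the line as a random block, 0 with the pool as a sample, 2 without line iPS1 and 0 without line iPS4, and 14 to 22 without single arrays. Over all probes the 4003 calls became 14089, 10826, 0, 751 and 0 in the same order, and 2325 to 5716 without single arrays. The other settings gave 12 to 20, and 13 of the 17 calls were shared with the scanner values, which called 15. Among the lines, the F test with 28 calls gave 0 at normexp offset 0, 3 with subtraction, 2 with median centring, 5 with no dye term, and 13 to 44 without single arrays. Over all probes its 8241 calls became 0, 586, 640 and 1494 in the same 4 settings, and 3374 to 12344 without single arrays. The difference iPS4 minus iPS1 (13 calls) gave 0, 0, 1 and 4 under these 4 settings, 7 with arrays scaled and 4 to 26 without single arrays. For iPS5 minus iPS1 (26) they gave 4, 6, 3 and 7, and single arrays 9 to 35. For iPS5 minus iPS4 (22) they gave 0, 0, 0 and 1, and single arrays 3 to 29. Of 340 values of the 17 called members over 20 settings, 257 stayed called in the same direction, 82 kept the direction without passing, and 1 reversed. That was Dnajb1, which had -0.0485 as the mean of its opposing probes. Directions reversed for genes not called: Hsp90aa1 (0.03) had -0.1536, -0.1347, -0.1374 and -0.1219 in the 4 scanner settings, -0.0075 without line iPS1, and -0.099 to 0.1565 without single arrays, reversing at -0.0703 and -0.099. Hsp90ab1 (-0.03) had 0.0048 with arrays scaled, 0.1017 without line iPS1 and 0.0099 without line iPS4. Without line iPS5, Hspb1 had -0.2592 and P4hb -0.0098. Each of the 3 settings without a line kept the same number of lines. Without line iPS5, 16 members and 5246 of all probes were called, unlike without iPS1 or iPS4. Why the settings differ was not tested.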
